A study of Homo sapiens with 9 samples.

Results

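The baseline microRNA (miRNA) repertoires of 2 human cell lines, HEK293E and K562, were compared in libraries from cells that had received control siRNAs only. These are 5 of the 9 libraries of the series: siGFP and siControl, each in replicates 1 and 2, for HEK293E, and a single siGFP library for K562. The other 4 libraries came from cells given siRNAs against the gene ERH (for HEK293E, siERH-3 in both replicates and siERH-5 in the second; for K562, siERH-5), and they served as a second set for reading the same difference, entered the scaling of all libraries, and entered the 1 fit that gives p-values. HEK293E descends from HEK293, a line made from human embryonic kidney, and K562 was grown from a chronic myeloid leukaemia and keeps features of the erythroid lineage. HEK293E grew in DMEM and K562 in RPMI1640, both with 9% serum. HEK293E took up siRNA from Lipofectamine 2000 on days 0 and 3 and was collected on day 5, whereas K562 was electroporated with the Neon system and collected 4 days later. The labels place HEK293E replicate 1, HEK293E replicate 2 and K562 in 3 different experimental groups. Cell line, medium, delivery of the siRNA, time of harvest and experimental group therefore cannot be told apart here, and every library came from transfected cells. Nothing in the labels says whether libraries with different replicate numbers came from separate cultures beyond their experimental group.

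A miRNA is cut from a hairpin-shaped precursor, and its 2 arms give the 5p and 3p mature forms. It guides Argonaute to messenger RNAs mainly through its seed, the bases just after its 5′ end, so that miRNAs with the same seed form families with shared targets. Neighbouring hairpins are often cut from 1 transcript, and many miRNAs are restricted to a lineage: miR-451 and miR-144 are known from red blood cell precursors, miR-223 from myeloid cells, miR-142 from blood cells in general, and miR-196 and miR-10 come from within the HOX gene clusters.

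The mature sequences below belong to hairpins with a large difference between the lines or with a relative that behaved differently, and are given with their RefSeq coordinates (GRCh38.p14). Capitals mark the seed, bases 2 to 8. The counts are per hairpin, so the 2 arms of a hairpin were not measured separately, and the arm shown is 1 of the 2. hsa-miR-451a is named only. For hairpins that were higher in K562:
hsa-miR-142-5p (chr17:58331283-58331303, minus strand): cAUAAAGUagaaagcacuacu
hsa-miR-223-3p (chrX:66018937-66018958, plus strand): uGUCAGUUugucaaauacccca
hsa-miR-144-3p (chr17:28861548-28861567, minus strand): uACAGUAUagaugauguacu
hsa-miR-224-5p (chrX:151958628-151958652, minus strand): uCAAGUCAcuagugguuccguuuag
hsa-miR-452-5p (chrX:151959678-151959699, minus strand): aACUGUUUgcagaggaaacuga
hsa-miR-135b-5p (chr1:205448361-205448383, minus strand): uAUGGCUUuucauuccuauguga
hsa-miR-145-5p (chr5:149430661-149430683, plus strand): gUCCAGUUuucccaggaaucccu
For hairpins that were higher in HEK293E, the first pair sharing a seed:
hsa-miR-221-3p (chrX:45746180-45746202, minus strand): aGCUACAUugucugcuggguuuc
hsa-miR-222-3p (chrX:45747036-45747056, minus strand): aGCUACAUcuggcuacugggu
hsa-miR-218-5p (chr4:20528299-20528319, plus strand): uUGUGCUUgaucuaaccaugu
hsa-miR-34a-5p (chr1:9151735-9151756, minus strand): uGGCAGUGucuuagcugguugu
hsa-miR-196b-5p (chr7:27169528-27169549, minus strand): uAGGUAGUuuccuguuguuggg
hsa-miR-30a-5p (chr6:71403595-71403616, minus strand): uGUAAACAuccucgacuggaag
hsa-miR-31-5p (chr9:21512158-21512178, minus strand): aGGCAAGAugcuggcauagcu

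The 5 control libraries held 2609929 to 3248481 hairpin counts, and of the 1485 hairpins listed, between 1208 and 1263 had a count in a HEK293E library and 1061 had one in the K562 library. Pearson's r of log2 CPM (counts scaled to 1e+06 per library) across hairpins was 0.984 to 0.992 between HEK293E control libraries and 0.832 to 0.842 between a HEK293E and the K562 control library. Hairpins are not independent replicates, so these values describe the libraries and carry no test. Levels below are CPM after scaling by TMM (trimmed mean of M values), and a log2 ratio is log2(CPM + 1) in K562 minus the mean of log2(CPM + 1) over the 4 HEK293E libraries. The TMM factor was 0.597 for K562 and 0.938 to 1.181 for the HEK293E controls, and scaling by library totals instead lowered the median log2 ratio of all compared hairpins from -0.48 to -1.18, a shift of -0.71. All values are relative to the other hairpins of the same library, since the spike-in RNAs were not used here.

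A hairpin is said to mark a line where it was at least 4-fold higher there and the K562 value lay outside the range of the 4 HEK293E libraries. Of 745 hairpins that averaged 10 counts or more, 77 marked K562 (10.3%) and 161 marked HEK293E (21.6%), so that 32.4% of the marking hairpins were those of K562. With library totals 60 marked K562 and 224 marked HEK293E, and the share of K562 among them was 21.1%. Just inside the 4-fold limit lay hsa-mir-3171 at a log2 ratio of 2.03 and hsa-mir-3176 at -2.09, and just outside it hsa-mir-3922 at 1.92 and hsa-mir-129-2 at -1.99. The K562 value lay outside the HEK293E range for 603 hairpins (80.9%), so lying outside the range alone is common. K562 has 1 control library, and the control comparison therefore has no replicate check and no p-value. The hairpins that marked K562 held 27.5% of the counts of K562 and 2.2% ± 0.159 (SD, n = 4) of those of HEK293E. Those that marked HEK293E held 14.3% ± 0.134 of the counts of HEK293E and 0.258% of those of K562. The scatter plot of levels shows the 2 groups on either side of a broad band of hairpins present in both lines.

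**Figure D1:**
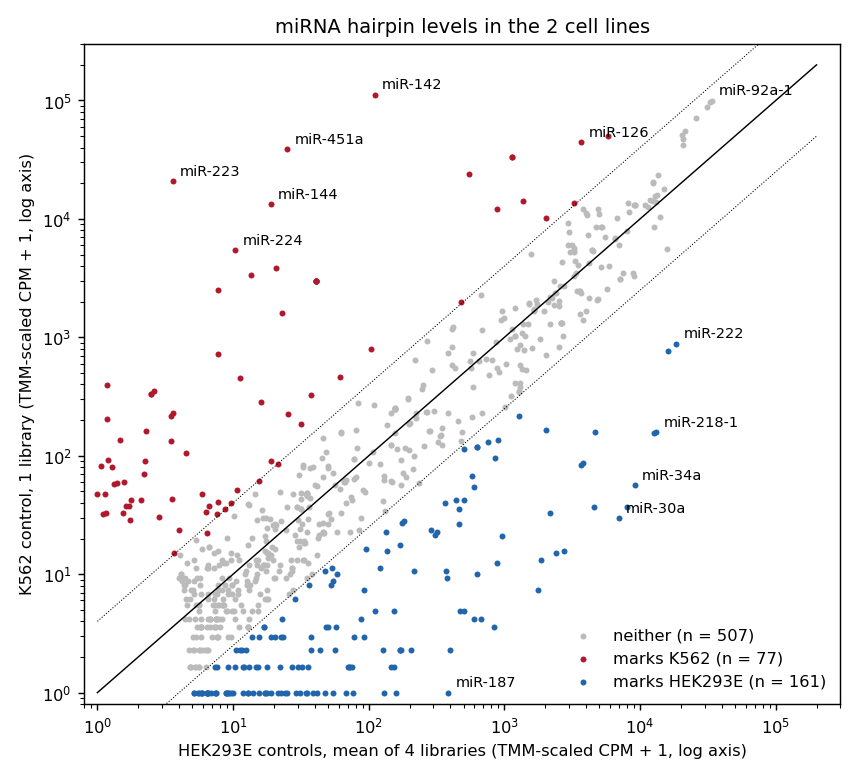
Each point is 1 of the 745 compared hairpins, with the mean TMM-scaled CPM + 1 of the 4 HEK293E control libraries on the x axis and that of the K562 control library on the y axis, both log axes. The solid line marks equal levels and the dotted lines 4-fold differences. The 77 red points mark K562 and the 161 blue points mark HEK293E. mir-142 and mir-223 lie far above the diagonal and mir-222 and mir-34a far below it.

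For a test with more than 1 K562 library, all 9 libraries were fitted with edgeR's quasi-likelihood test, with siERH against control siRNA as a second term. The K562 libraries belong to 1 experimental group and the HEK293E libraries to 2, and the fit treats libraries of the same group as independent. It includes the control libraries whose ratios chose many of the named hairpins. Its p-values are therefore not separate support for those ratios. Of 790 hairpins tested, 197 were higher in K562 (24.9%) and 311 in HEK293E (39.4%) at a Benjamini-Hochberg adjusted p under 0.05. With library totals the counts were 115 (14.6%) and 479 (60.6%). Every count of list members below is to be read against these shares of all hairpins. This fit rests on 2 K562 libraries and 7 HEK293E libraries: without the K562 siERH-5 library 132 and 275 hairpins were called, and without the K562 siGFP library 164 and 264.

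K562 put its reads on fewer hairpins than HEK293E did. The top hairpin held 3.63% of the counts in HEK293E siGFP replicate 1, 4.12% in siGFP replicate 2, 3.82% in siControl replicate 1 and 3.83% in siControl replicate 2, and 6.67% in K562 (95% Wilson interval 6.64% to 6.70%). The K562 value lay above all 4. The top 10 hairpins held 25.6% ± 1.76 (SD, n = 4) of the counts in HEK293E and 42.75% in K562, with a Wilson interval of 42.69% to 42.81%. It took 29.25 ± 1.26 hairpins to reach 50% of the counts in HEK293E and 14 in K562, and 126.8 ± 3.78 against 83 to reach 90%. With 1 copy kept per hairpin name, the top 10 held 29.04% ± 1.76 and 47.73%. Wilson intervals cover counting error only, and the K562 values come from 1 library.

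**Figure D2:**
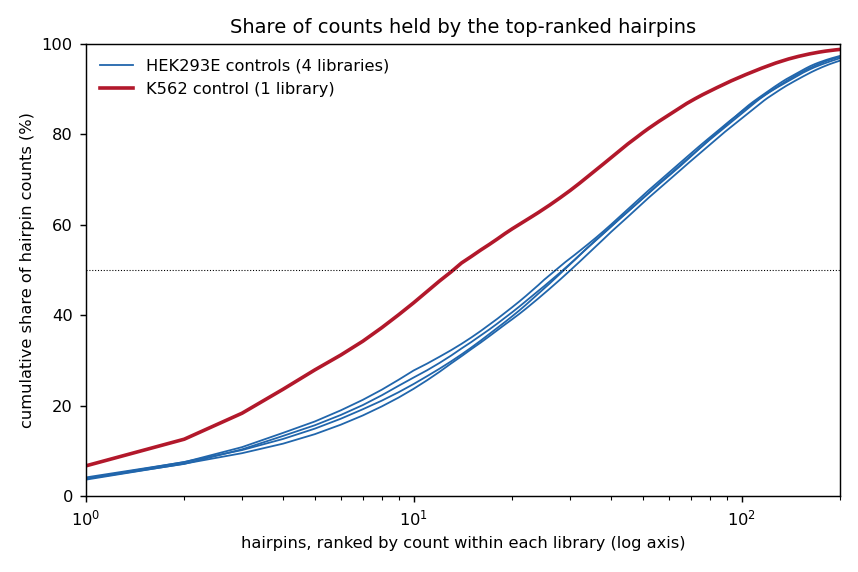
Hairpins are ranked by count within each control library along the x axis (log axis, first 200 ranks), and the y axis gives the cumulative share of hairpin counts in percent. The K562 curve (red, 1 library) runs above the 4 HEK293E curves (blue) and crosses 50% at 14 hairpins, where HEK293E needs 28 to 31.

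Both lines drew heavily on the miR-17-92 cluster, a set of 6 hairpins cut from the transcript MIR17HG on chromosome 13 that is known for promoting proliferation. With 1 copy kept per name, the 10 most abundant hairpins of the 2 lines shared 6, and these 6 were the members of this cluster: mir-17, mir-18a, mir-19a, mir-20a, mir-19b-1 and mir-92a-1. mir-92a-1 held 3.53% ± 0.238 (SD, n = 4) of HEK293E counts and 5.92% of K562 counts. mir-17 held 3.22% ± 0.881 and 5.30%. Its 4 HEK293E levels were 19660 and 40400 CPM in siGFP replicates 1 and 2 and 24530 and 40790 CPM in siControl replicates 1 and 2, so both replicate 2 libraries were higher than both replicate 1 libraries, and K562 stood at 88730 CPM. The log2 ratios of the 6 members were 1.06 to 1.57 on the TMM scale and 0.24 to 0.76 on library totals.

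The remaining top hairpins differed. In HEK293E they were mir-222 (1.91% ± 0.458 of counts, rank 117 in K562), mir-10a (1.67% ± 0.355, rank 51), mir-221 (1.65% ± 0.345, 0.0458% in K562) and mir-423 (1.58% ± 0.354, rank 16). In K562 they were mir-142 (6.67%, rank 236 in HEK293E), mir-21 (3.01%, rank 36), mir-126 (2.65%, rank 57) and mir-451a (2.31%, rank 359). mir-423 itself was close between the lines, with a log2 ratio of 0.27 on the TMM scale and -0.54 on library totals, and an edgeR adjusted p of 0.0816 on the TMM scale. The call changed with the model, since with the experimental groups as a block hsa-mir-423 was called higher in K562 (log2 fold change 0.33, adjusted p 0.0201), as it was by DESeq2 (0.61, adjusted p 0.000427).

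The erythroid markers set K562 apart. mir-451a, whose mature form is made by Argonaute 2 rather than Dicer, stood at 27.4 and 22.9 CPM in HEK293E siGFP replicates 1 and 2, at 27.1 and 18.8 CPM in siControl replicates 1 and 2, and at 38730 CPM in K562. mir-144, its neighbour on chromosome 17 (28861533 to 28861618, minus strand, GENCODE release 29), stood at 17.0, 19.2, 19.0 and 17.0 CPM in the same order and at 13250 CPM in K562. The HEK293E libraries lay close together and far below K562 for both, and the log2 ratios were 10.61 and 9.45 with edgeR adjusted p values of 1.07e-12 and 3.24e-13 over all 9 libraries. mir-486-1 and mir-486-2, 2 copies whose reads may not be separable, are known from erythroid and muscle cells. Both were higher in K562, by log2 ratios of 4.90 each. They were not low in HEK293E, where mir-486-1 ranged from 886.9 to 1406 CPM against 33330 CPM in K562. All 4 compared hairpins of the erythroid list, 3 names, thus marked K562, as did 10.3% of all compared hairpins, and the fifth, mir-451b, had no count in any control library.

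Of the 7 hairpins of the wider blood list, 5 marked K562 and 1 marked HEK293E, where 10.3% and 21.6% of all compared hairpins did. mir-142, the top hairpin of K562, stood at 79.0 and 166 CPM in HEK293E siGFP replicates 1 and 2, at 74.3 and 119 CPM in siControl replicates 1 and 2, and at 111800 CPM in K562, a log2 ratio of 10.06 (edgeR adjusted p 8.94e-11). mir-223 had the largest ratio of all hairpins considered for naming: 32446 counts in K562 against 1 count in each of 3 HEK293E libraries and 25 in siGFP replicate 2. Pooled over the HEK293E libraries this is a ratio of 5287 on library totals, with an exact 95% interval of 3657 to 7958 that covers counting error only. Without siGFP replicate 2 the log2 ratio of mir-223 moved from 13.21 to 13.96.

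mir-126, known from endothelial and blood stem cells, stood at 44410 CPM in K562 and between 2961 and 4510 CPM in HEK293E, a log2 ratio of 3.62. mir-146b and mir-146a, known as brakes on inflammatory signalling, had log2 ratios of 5.50 and 3.10. mir-150, known from mature lymphocytes, was low in both lines, at 1.56 to 5.64 CPM in HEK293E and 8.33 CPM in K562 (edgeR adjusted p 0.195). mir-155, known from activated lymphocytes and myeloid cells, went the other way: it had 86 and 78 counts in HEK293E siGFP replicates 1 and 2, 70 and 111 in siControl replicates 1 and 2, and none in K562, which puts it at least 20.3-fold higher in each HEK293E library against a floor of 3 counts in K562.

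Beyond the blood lists, 6 of the 10 largest ratios toward K562 belonged to hairpins with other associations. mir-224 and mir-452 lie about a kilobase apart within the gene GABRE on the X chromosome, annotated in exonic sequence. mir-224 stood at 6.26 and 19.2 CPM in HEK293E siGFP replicates 1 and 2, at 4.35 and 7.65 CPM in siControl replicates 1 and 2, and at 5458 CPM in K562. mir-452 stood at 4.66 to 8.64 CPM in HEK293E and 2527 CPM in K562. Both neighbours were thus high in K562, with log2 ratios of 9.23 and 8.39 (edgeR adjusted p 4.59e-10 and 1.86e-11). mir-135b, in an intron of LEMD1 on chromosome 1, stood at 5.74 to 19.8 CPM in HEK293E and 3358 CPM in K562, a log2 ratio of 8.09.

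mir-145 and mir-143, which lie within 2 kb of each other in CARMN on chromosome 5 and are both known from smooth muscle, parted. mir-145 stood at 14.3 and 18.4 CPM in HEK293E siGFP replicates 1 and 2, at 22.1 and 23.6 CPM in siControl replicates 1 and 2, and at 3853 CPM in K562, a log2 ratio of 7.57. mir-143 stood at 25.8, 19.2, 55.3 and 36.5 CPM in the same order and at 46.2 CPM in K562, inside the HEK293E range, with an edgeR adjusted p of 0.33. mir-3667 and mir-548x, in introns of C22orf34 and MIR548XHG, had 619 and 318 counts in K562 and at most 1 count in any HEK293E control library. Pooled ratios on library totals were 1412 (exact 95% interval 389 to 11686) and 725 (199 to 6016).

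**Figure D3:**
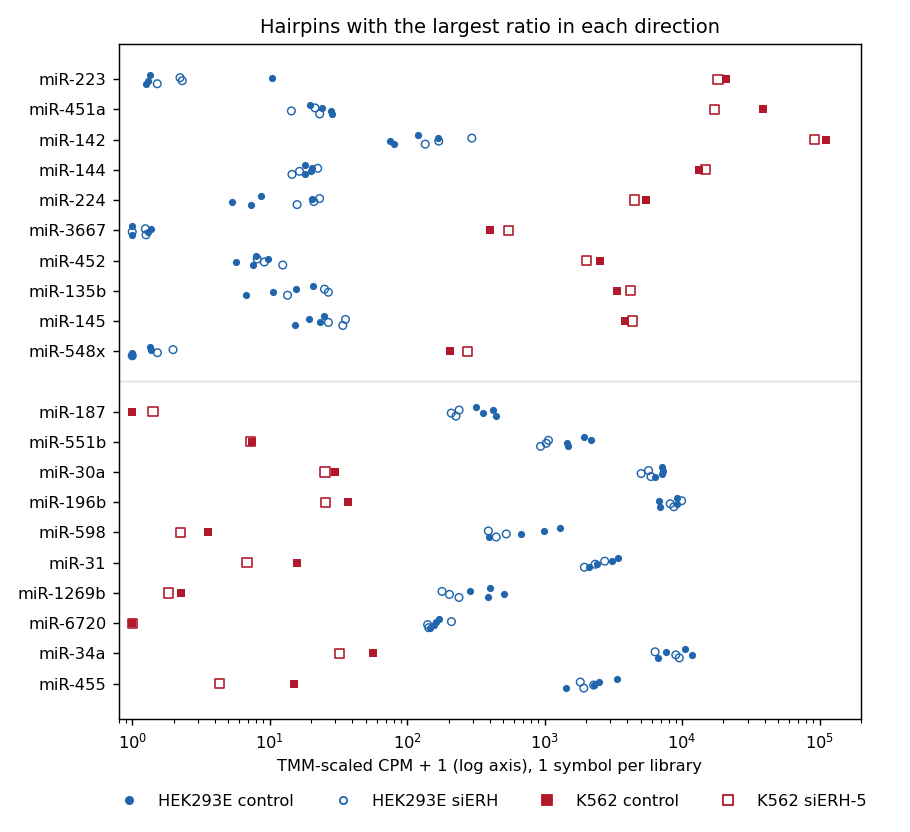
The 10 hairpins with the largest log2 ratio toward K562 (top) and toward HEK293E (bottom), 1 symbol per library, with TMM-scaled CPM + 1 on a log axis. Filled symbols are control libraries (4 HEK293E as circles, 1 K562 as a square) and open symbols the siERH libraries (3 and 1). The circles and squares do not overlap, but the 20 hairpins were chosen by their ratio in the control libraries. The separation of the filled symbols was therefore fixed by the choice. Of all 745 compared hairpins, 603 (80.9%) had a K562 control value outside the HEK293E range. mir-223 in K562 is at 20800 CPM, and mir-34a in K562 is at 55.1 CPM.

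The large imprinted cluster on chromosome 14, expressed from the maternal chromosome and known from embryonic tissue and brain, was detected at a low level, mostly in K562. Of its 50 hairpins measured, K562 lay above all 4 HEK293E controls for 46 (92%), against 28.1% of all 1485 hairpins. The summed counts of the 50 were 91 and 51 in HEK293E siGFP replicates 1 and 2, 69 and 56 in siControl replicates 1 and 2, and 1639 in K562, so the cluster is a small part of the K562 library. mir-127 stood at 5.21 and 0.376 CPM in HEK293E siGFP replicates 1 and 2, at 3.42 and 1.04 CPM in siControl replicates 1 and 2, and at 132.7 CPM in K562. mir-376c stood at 0.752 to 1.74 CPM in HEK293E and at 89.8 CPM in K562. mir-337 had no count in any HEK293E control library and 73 counts in K562. Only 13 of the 50 reached the filter on low counts, and they did so mainly through their counts in K562, so no count of marks is drawn from them.

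Several other hairpins outside the rule for naming were chosen after their values were seen. hsa-mir-105-1, hsa-mir-105-2 and hsa-mir-767 lie together in an intron of GABRA3 on the X chromosome and had log2 ratios of 7.10, 7.10 and 7.13, with hsa-mir-767 at 0.695 to 3.01 CPM in HEK293E and 349.4 CPM in K562. hsa-mir-675, cut from the imprinted noncoding RNA H19, stood at 19.0 to 24.6 CPM in HEK293E and 1616 CPM in K562, a log2 ratio of 6.15. hsa-mir-135a-1, which shares a family with mir-135b, had a log2 ratio of 6.02 and stood at 228.2 CPM in K562. hsa-mir-3180-1 on chromosome 16 had a log2 ratio of 6.28, while its neighbour hsa-mir-3179-1 had -1.84, and both belong to sets of near-identical copies.

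The largest ratios toward HEK293E covered several kinds of miRNA. mir-30a, a member of a broadly expressed family, stood at 6400 and 7243 CPM in siGFP replicates 1 and 2, at 7161 and 7124 CPM in siControl replicates 1 and 2, and at 28.9 CPM in K562. mir-34a, a target of p53 that restrains the cell cycle, stood at 6689, 7690, 11730 and 10430 CPM in the same order and at 55.1 CPM in K562. mir-31, in an intron of MIR31HG on chromosome 9, stood at 2097, 3078, 2417 and 3440 CPM and at 14.7 CPM in K562. In all 3 cases the HEK293E libraries lay far above K562, with log2 ratios of -7.87, -7.31 and -7.43 and edgeR adjusted p values of 2.14e-11, 1.67e-09 and 1.80e-09.

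mir-551b and mir-455, the second of which lies in an intron of the cartilage collagen gene COL27A1, had log2 ratios of -7.87 and -7.25. mir-598 in an intron of XKR6 varied more among HEK293E libraries, from 390.6 to 1298 CPM, against 2.56 CPM in K562. mir-187 had 1695 and 1115 counts in HEK293E siGFP replicates 1 and 2, 1145 and 909 in siControl replicates 1 and 2, and none in K562, at least 258-fold higher against the floor of 3 counts. mir-6720 stood at 146.5 to 169.3 CPM in HEK293E and had no count in either K562 library.

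mir-221 and mir-222, neighbours on the X chromosome that are known to repress KIT and the cell cycle inhibitor p27, gave the most abundant difference in this direction. mir-222 stood at 13790 and 24180 CPM in HEK293E siGFP replicates 1 and 2, at 13570 and 22340 CPM in siControl replicates 1 and 2, and at 880.8 CPM in K562. mir-221 stood at 11870, 20120, 12390 and 19470 CPM in the same order and at 768 CPM in K562. Replicate 2 libraries were higher than replicate 1 libraries for both, and all 4 lay above K562, with log2 ratios of -4.34 and -4.33 (edgeR adjusted p 9.88e-08 and 4.82e-08).

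The 6 hairpins of the HOX clusters, 5 names, were all higher in HEK293E in the edgeR fit on either scaling. Of all hairpins 39.4% were so on the TMM scale and 60.6% with library totals. Of the 6, 3 marked HEK293E, where 21.6% of all compared hairpins did. mir-196b, between the HOXA genes on chromosome 7, stood at 6924 and 6806 CPM in siGFP replicates 1 and 2, at 9159 CPM in both siControl libraries, and at 35.9 CPM in K562. mir-10b, from the HOXD cluster, stood at 3563 to 5578 CPM in HEK293E and also at 35.9 CPM in K562, a log2 ratio of -6.95. mir-10a, from the HOXB cluster, was abundant in both lines, at 13870 to 17830 CPM in HEK293E and 5596 CPM in K562, a log2 ratio of -1.48 that became -2.30 with library totals. mir-615, from the HOXC cluster, had a log2 ratio of -3.60, and the 2 copies of mir-196a had -1.42 and -1.59.

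Of 15 hairpins known from neurons, 8 marked HEK293E and none marked K562, where 21.6% of all compared hairpins marked HEK293E. Several are copies of each other, and with 1 copy per name 4 of 7 marked HEK293E. In the edgeR fit 6 of these 7 names were higher in HEK293E and none in K562, against 39.4% of all hairpins higher in HEK293E. mir-218-1 stood at 12070 and 12140 CPM in siGFP replicates 1 and 2, at 14530 and 13750 CPM in siControl replicates 1 and 2, and at 157.1 CPM in K562, a log2 ratio of -6.37. mir-138-1, found in neuronal dendrites, stood at 476.6 to 554.6 CPM in HEK293E and 3.85 CPM in K562, a log2 ratio of -6.70. The 3 loci of mir-124, copies with nearly the same counts and so not separate measurements, had log2 ratios of -6.21 to -6.23. mir-9-1, by contrast, was abundant in both lines, at 2299 to 3167 CPM in HEK293E and 1330 CPM in K562. mir-128-1 was level between them on the TMM scale, with a log2 ratio of 0.06, and was -0.76 with library totals.

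Of 11 hairpins of an epithelial list, mostly of the miR-200, miR-192 and miR-194 families, 2 marked K562 and 4 marked HEK293E. Of all compared hairpins 10.3% and 21.6% did. The edgeR fit called 4 of the 11 higher in K562 and 5 in HEK293E, or 4 and 7 with library totals. Of all hairpins 24.9% and 39.4% were so called on the TMM scale, and 14.6% and 60.6% with library totals. The share higher in HEK293E was near that of all hairpins on either scaling. The share higher in K562 was larger, more so with library totals, and this excess was not tested. mir-200c and mir-141, which are known for holding cells in an epithelial state, were close between the lines: mir-141 stood at 210.4 to 248.2 CPM in HEK293E and 208.3 CPM in K562. mir-200a stood at 40.7 to 60.8 CPM in HEK293E and 7.69 CPM in K562. mir-192, known from kidney, liver and gut, was lower in HEK293E than in K562. Outside these families, mir-205 was higher in K562, with a log2 fold change of 4.46 in the edgeR fit. mir-203a went the other way, with 42 to 60 counts in HEK293E controls and 0 in K562 siGFP. Muscle hairpins and pluripotency hairpins were low in both lines. The 9 muscle hairpins summed to 119.1 to 158.2 CPM in HEK293E and 67.3 CPM in K562, and none of the 6 tested was called by edgeR on the TMM scale. With library totals 3 were higher in HEK293E, as were 60.6% of all hairpins. The 9 hairpins of the miR-302/367 and miR-371 to miR-373 clusters summed to 2.49 to 8.27 CPM and 7.69 CPM, near the floor of 3 counts, and none passed the filter.

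Related hairpins from different places in the genome often parted, and their mature forms show how alike they are. Each pair below shares its seed:
hsa-miR-99a-5p (chr21:16539101-16539122, plus strand): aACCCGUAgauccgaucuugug
hsa-miR-99b-5p (chr19:51692618-51692639, plus strand): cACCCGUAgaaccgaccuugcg
hsa-let-7c-5p (chr21:16539838-16539859, plus strand): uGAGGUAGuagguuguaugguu
hsa-let-7e-5p (chr19:51692793-51692814, plus strand): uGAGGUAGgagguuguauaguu
hsa-miR-125b-5p (chr21:16590253-16590274, plus strand): uCCCUGAGacccuaacuuguga
hsa-miR-125a-5p (chr19:51693268-51693291, plus strand): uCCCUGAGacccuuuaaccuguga
hsa-miR-23a-3p (chr19:13836595-13836615, minus strand): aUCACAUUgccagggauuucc
hsa-miR-23b-3p (chr9:95085265-95085287, plus strand): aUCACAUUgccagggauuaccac
hsa-miR-192-5p (chr11:64891203-64891223, minus strand): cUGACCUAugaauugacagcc
hsa-miR-215-5p (chr1:220117916-220117936, minus strand): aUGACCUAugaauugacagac

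The miR-99, let-7 and miR-125 trio exists at several loci, and the locus on chromosome 19 was present in both lines while the locus on chromosome 21 was largely a HEK293E property. mir-99a stood at 5222 and 4291 CPM in HEK293E siGFP replicates 1 and 2, at 4677 and 4533 CPM in siControl replicates 1 and 2, and at 156.4 CPM in K562, a log2 ratio of -4.89. Its neighbour let-7c had a log2 ratio of -6.11 and mir-125b-2 had -5.46. On chromosome 19, mir-99b had 0.83 on the TMM scale and 0.01 with library totals, mir-125a had 1.71 and 0.90, and let-7e had 0.43 and -0.38. mir-99b stood at 4325, 3527, 4597 and 4001 CPM in HEK293E and 7255 CPM in K562. mir-100 and mir-125b-1 on chromosome 11 went with the chromosome 21 locus, at -4.46 and -5.45, although the reads of the 2 mir-125b copies may not be separable.

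Of the other let-7 hairpins, none apart from let-7c marked a line. In the edgeR fit 8 of the 12 let-7 and mir-98 hairpins were higher in HEK293E and none in K562 on the TMM scale, and all 12 were higher in HEK293E with library totals. The shares of all hairpins higher in HEK293E were 39.4% and 60.6%, and several let-7 hairpins are copies, which leaves 7 of 9 names on the TMM scale. let-7a-1, with near-identical copies at 2 other loci, stood at 1935 to 3060 CPM in HEK293E and 2353 CPM in K562.

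The miR-23/27/24 family showed the same kind of split toward K562. mir-23a on chromosome 19 stood at 326.7 and 1135 CPM in HEK293E siGFP replicates 1 and 2, at 542.5 and 1502 CPM in siControl replicates 1 and 2, and at 12030 CPM in K562, a log2 ratio of 4.02, and its neighbour mir-27a had 3.39. mir-23b and mir-27b on chromosome 9 had 0.58 and 0.24 on the TMM scale and -0.23 and -0.58 with library totals. mir-23b in K562, at 3009 CPM, lay inside the HEK293E range of 942.3 to 3819 CPM. The 2 copies of mir-24, 1 at each locus, had log2 ratios of 1.43 and 1.52.

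mir-192 and mir-215 share a seed and are both targets of p53, and they marked opposite lines. mir-192 stood at 449.5 to 505.2 CPM in HEK293E and 1971 CPM in K562, a log2 ratio of 2.05 just past the 4-fold limit, and had 1.24 with library totals. mir-215 stood at 94.8 to 160.1 CPM in HEK293E and 10.3 CPM in K562, a log2 ratio of -3.41. hsa-mir-130a and hsa-mir-130b, chosen after their values were seen, also parted: hsa-mir-130a stood at 927.4 to 2883 CPM in HEK293E and 12.2 CPM in K562, and hsa-mir-130b at 1979 to 4546 CPM and 13670 CPM. Over all compared hairpins with a RefSeq entry, 100 seeds were shared by 2 or more hairpin names. Of the 55 of these with a marking hairpin, 17 held marks of K562 only, 34 of HEK293E only and 4 of both lines. Of all compared hairpins 10.3% marked K562 and 21.6% marked HEK293E. Some hairpins enter by both arms, so the seeds are not independent. The RefSeq entry of hsa-mir-130a holds only its 5p form, so it is missing from the group of hsa-mir-130b, which was counted under K562 only.

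**Figure D4:**
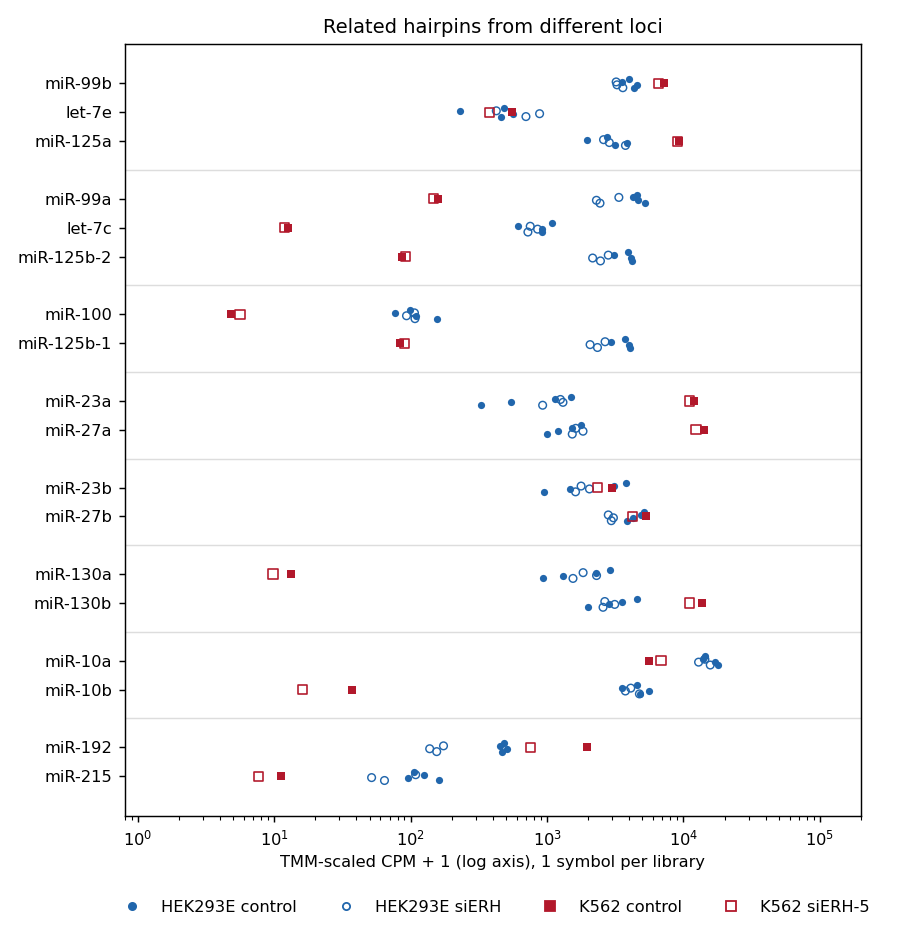
Related hairpins from different loci, grouped by locus or family between the grey lines, 1 symbol per library, with TMM-scaled CPM + 1 on a log axis. Symbols are as in the plot of the largest ratios. In K562 mir-99b and mir-125a lie above the HEK293E controls on this scale and let-7e lies among them, with a log2 ratio of 0.43 that is -0.38 with library totals. The mir-99a, let-7c and mir-125b-2 group lies far below in K562.

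Among the other families, 11 of the 13 tested members of miR-17-92 and its paralogues on chromosomes X and 7 were higher in K562 in the edgeR fit on the TMM scale, but with library totals 8 were higher in K562 and 3 in HEK293E. Of all hairpins 24.9% and 14.6% were higher in K562 on these scales. mir-25 was called in opposite directions on the 2 scales, with log2 fold changes of 0.44 (adjusted p 0.0357) and -0.35 (adjusted p 0.0343). All 6 mir-181 hairpins, 4 names known from lymphocyte development, were higher in HEK293E on either scaling. Of all hairpins 39.4% were higher in HEK293E on the TMM scale and 60.6% with library totals. mir-181c and mir-181d marked that line with log2 ratios of -2.53 and -3.14. In the family of miR-34 and miR-449, mir-34a, mir-449a, mir-449b and mir-449c marked HEK293E, while mir-34b and mir-34c in K562 lay inside the HEK293E range. These counts of marks, 2 of 6 and 4 of 6, stand against 21.6% of all compared hairpins. mir-34b itself ranged from 7.04 to 43.8 CPM among HEK293E libraries. mir-21, known from many tumours, stood at 4452 to 7261 CPM in HEK293E and at 50360 CPM in K562, a log2 ratio of 3.14.

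Hairpins near each other in the genome were tallied by the line they marked. Among hairpins within 10 kb on the same strand there were 69 clusters with at least 2 compared members, and 30 of them held a marking hairpin. In 13 all marks were those of K562, in 17 those of HEK293E, and none held marks of both lines. Most clusters have 2 members, and 10.3% and 21.6% of all compared hairpins marked K562 and HEK293E. Clusters with both marks would thus be few even among unrelated hairpins, and their absence was not tested against this. Copies of mir-3180 with mir-3179 enter the K562 group as separate clusters, with spans of 8.13 to 8.14. The median span of log2 ratios within a cluster was 0.71. Members of a cluster are not independent, and copies share reads. On the TMM scale and with 1 copy per name, the median log2 ratio was -0.51 over all 652 compared hairpins. Of these, 150 marked HEK293E. By chromosome, the median was highest on chromosome 14, at 2.02 (27 hairpins). Members of the imprinted cluster there passed the filter mainly through their K562 counts. It was 0.84 on chromosome 13 (16 hairpins) and -2.68 on chromosome 21 (9 hairpins, 5 marking HEK293E).

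Some hairpins were on in only 1 line, defined as at least 10 CPM on library totals in every control library of that line and at most 3 counts in each control library of the other. Of the 1485 hairpins 26 (1.75%) met this for K562 and 52 (3.5%) for HEK293E. The K562 set asks 1 library to pass and the HEK293E set asks 4, so the 2 numbers are not on equal terms. In 5 of the 26 and 23 of the 52 the other line had no count at all. The hairpins of a set are not all separate loci. Many of the 26 lie on chromosome 14, among them mir-136, mir-337, mir-379 and mir-493 of the imprinted cluster. mir-3689a, mir-3689b and mir-3689e lie together on chromosome 9.

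Of the 26 hairpins on in K562 only, mir-3667, mir-548x, mir-4704, mir-548ax and mir-1247 had the highest CPM of the names considered. mir-4704 had 143 counts in K562 and 0, 2, 0 and 0 in HEK293E siGFP replicates 1 and 2 and siControl replicates 1 and 2. mir-1247, from the antisense transcript of the imprinted gene DIO3, had 123 counts in K562 and 3 or fewer in any HEK293E control library, a ratio of 140 on library totals (exact 95% interval 53.4 to 523). hsa-mir-4732, named after its values were seen, lies beside mir-144 and mir-451a on chromosome 17 and had 30 counts in K562 and none in HEK293E.

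Of the 52 hairpins on in HEK293E only, mir-1269b was the most abundant by mean CPM, with 1484, 759, 1627 and 1143 counts in siGFP replicates 1 and 2 and siControl replicates 1 and 2 and 2 counts in K562. mir-187, mir-618, mir-124-3 and mir-6720 followed. mir-483, in an intron of the growth factor gene IGF2, had 228 to 389 counts in HEK293E and 3 in K562, a ratio of 84.7 (exact 95% interval 28.9 to 412). hsa-mir-216a, hsa-mir-216b and hsa-mir-217, known from pancreas and named after their values were seen, lie together in MIR217HG on chromosome 2, and all 3 were on in HEK293E only.

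The same ratios were read in the siERH libraries, which share no library with the controls. There 89 of 832 compared hairpins marked K562 (10.7%) and 176 marked HEK293E (21.2%). Of the 77 hairpins that marked K562 in controls 69 did so here (89.6% of the control list and 77.5% of the siERH list), and of the 161 that marked HEK293E 138 did so (85.7% and 78.4%). None marked opposite lines. Pearson's r of the ratios was 0.96 across 726 hairpins compared in both sets, which share their cell lines and culture conditions.

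Some ratios were smaller in size in the siERH libraries and others were larger, and the hairpins below are examples. mir-124-3 had 817, 462, 490 and 433 counts across the control libraries of HEK293E but 75 to 86 in the siERH libraries, and 2 against 9 in K562, so that its log2 ratio was -6.23 in controls and -2.18 in siERH libraries. hsa-mir-4421, chosen after its values were seen, had 138 to 324 counts in HEK293E controls, 8 to 14 in the siERH libraries and 1 in each K562 library. The ratio of mir-451a changed less: it was 38730 CPM in K562 siGFP and 17250 CPM in K562 siERH-5, with log2 ratios of 10.61 and 9.81. Its neighbour mir-144 had 9.45 in controls and 9.72 in siERH libraries. Of the hairpins on in only 1 line in controls, 14 of the 26 for K562 and 35 of the 52 for HEK293E met the same rule in the siERH libraries.

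**Figure D5:**
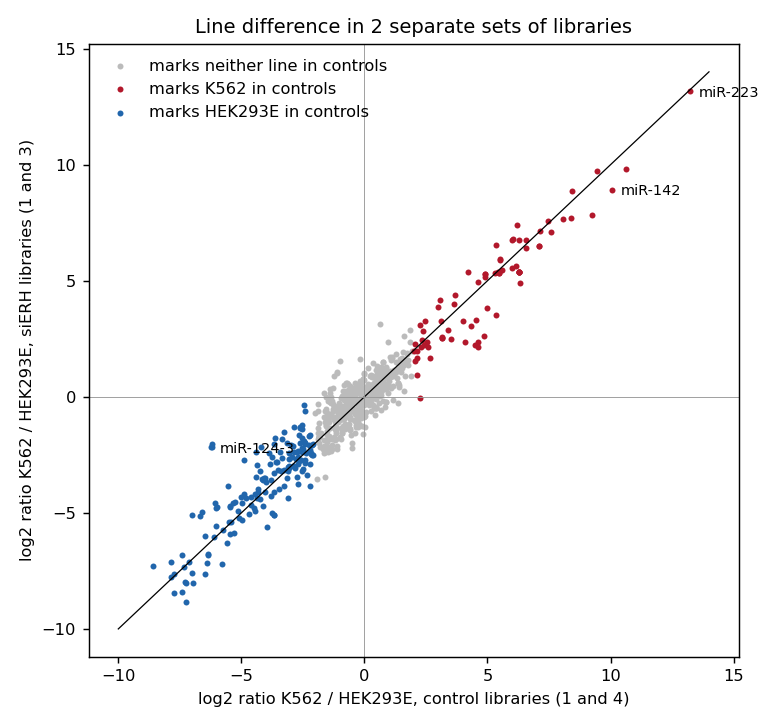
Each point is 1 of 726 hairpins compared in both sets, with the log2 ratio of K562 to HEK293E in control libraries (1 and 4) on the x axis and in siERH libraries (1 and 3) on the y axis. The line marks equal ratios. Red and blue points mark K562 and HEK293E in controls, and mir-124-3 sits off the line at -6.23 and -2.18.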

How the data were processed

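The authors deposited whole-number counts per miRNA hairpin and, in a second table, RPM, which recomputation showed to be the count plus 1 over the library total plus 1485, per 1e+06 (largest relative difference 1.1e-09). Blank cells (2336) were read as 0. The build is hg38, and cutadapt, Bowtie2 and bedtools are named, per the submitters' processing notes; their roles and settings are not given in the sources used here, nor whether reads were collapsed by molecule or how reads fitting several copies were counted. The deposited RPM served only as an alternative for dominance.

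Libraries were grouped by title. Counts were scaled by TMM over all 9 libraries with edgeR 4.0.16 (R 4.3.3), a pseudocount of 1 CPM was added for log2 ratios, and hairpins averaging 10 counts or more in a comparison were kept. Over 5 libraries a hairpin seen only in K562 must therefore be deeper to be kept than one seen only in HEK293E. The line difference was tested by quasi-likelihood in edgeR, modelled as ~siERH + line, and p-values were adjusted by Benjamini-Hochberg over all hairpins tested. Tested on simulated data with 790 hairpins, it called 103 of 200 hairpins changed 2-fold (51.5%) with 4 false calls, 180 of 200 changed 4-fold (90%) with 9 false calls, and 1 of 790 when nothing changed. Whether these numbers carry over to the measured libraries, where the calls depended on the scaling, was not tested. P-values measure only the spread between the measured libraries, which may be technical. The floor of 3 counts was 0.924 to 1.15 CPM in the control libraries.

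Hairpin positions are from GENCODE release 29 (GRCh38), matched for 1480 of 1485 hairpins, and mature sequences from RefSeq (GRCh38.p14), matched for 1325. Named hairpins are, with 1 copy per name, the top 10 by share in each line, the 10 largest ratios each way with at least 100 CPM in the higher line, up to 10 per line on in only 1 line by CPM, and members of the lists. Members and lists were chosen with earlier results of these data known. DESeq2 1.42.0, other scalings, filters and copies, each library left out, and a replicate block were tried. Other tools were Python 3.11.15, pandas 2.3.3, scipy 1.17.1 and matplotlib 3.10.9.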

Additional observations from a re-analysis of the deposited data

Results flagged for a closer look

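The search covered 50 sets of 4 values, 47 of them named hairpins and the rest measures of dominance. In 5 sets, all hairpins, 1 of the 4 HEK293E control libraries stood apart from the other 3 by Dixon's criterion. Chance gives about 1 in 20, but in 3 of the 5 the other libraries had no count, so that any count meets the criterion and the comparison with chance does not apply. mir-223 had 9.40 CPM (25 counts) in siGFP replicate 2 and 1 count in each other library. mir-30a was low in siGFP replicate 1, at 6400 CPM against 7124 to 7243 CPM in the others. mir-136 at 0.521 CPM (2 counts) and mir-548ax at 0.261 CPM (1 count) were seen only in siGFP replicate 1, and mir-4704 at 0.752 CPM (2 counts) only in siGFP replicate 2.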

How the results depend on the processing

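The direction of the line difference held for the 47 hairpins named for their share, their ratio or presence in only 1 line, under every alternative tried, except for mir-423 (hsa-mir-423), which had a log2 fold change of -0.46 (edgeR adjusted p 0.0411) with library totals and 0.35 (0.0816) with TMM. Among list members described above, mir-25, let-7e, let-7a-1, mir-23b, mir-27b, mir-128-1, mir-143, mir-200c and mir-34b also turned from above 0 to below 0 with library totals. Counts of hairpins moved by more than 1.5 times as follows. A pseudocount of 10 CPM left 88 hairpins marking HEK293E in controls and 78 in siERH libraries. With no filter 122 of 1485 marked K562 in controls. A mean of at least 100 counts left fewer hairpins to compare, and the counts fell with that number. Of 392 in controls 36 marked K562 and 88 HEK293E, and of 436 in siERH libraries 43 and 94 did. With this filter edgeR called 106 and 179 of 420. An edgeR test of the 4 HEK293E controls against the lone K562 control, which is assumed to vary like the others, called 134 higher in K562. Library totals gave 115 and 479 calls over all libraries. At least 100 CPM left 2 hairpins on in K562 only and 10 in HEK293E only, and 0 counts in the other line left 5 and 23. The shares of the top hairpins moved by less: with 1 copy per name the top hairpin held 4.78% of HEK293E and 8.21% of K562 counts, the top 10 held 29.04% and 47.73%, and 24 and 11 hairpins reached 50%.

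Leaving out each HEK293E library in turn gave 79 to 84 hairpins marking K562 and 155 to 166 marking HEK293E in controls, 99 to 101 and 169 to 174 in siERH libraries, and leaving out any of the 9 libraries gave 132 to 207 and 264 to 313 edgeR calls. Without each HEK293E control library 26 to 29 and 52 to 54 hairpins were on in only 1 line. In HEK293E the top hairpin held 3.76% to 3.92%, the top 10 held 24.91% to 26.27%, and 28.67 to 29.67 hairpins reached 50%. With the 3 experimental groups as a replicate block, testing K562 against the mean of the 2 HEK293E groups, 211 and 325 hairpins were called, of which 196 and 310 were among the 197 and 311; K562 has only replicate 1, so no pairing across lines exists. Further checks were added after seeing the data: against HEK293E replicate 1 only 90 and 164 hairpins marked the lines, against replicate 2 only 94 and 152, and with a filter on the mean of the line means 99 and 147. DESeq2 called 242 and 267, and with no filter 295 and 375 of 1485 hairpins were called. Hairpins with few counts limit the on-in-1-line lists: most K562 entries rest on under 100 counts in 1 library.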
